A study of Homo sapiens with 10 samples.

Results

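The collagen genes were taken as the autosomal protein-coding genes whose symbol is COL, a number, A and a number, which gave 42 of the 19126 autosomal protein-coding genes of the RefSeq table (GRCh38.p14). They covered 6575 kb, counted as gene bodies with 2 kb on both sides, or 0.520% of the same region over all these genes. Methylated DNA was measured by MeDIP-seq in HEK293T, a human embryonic kidney cell line that carries the SV40 large T antigen. The 5 conditions were EV, KD and WT, and the knockouts K non-rep KO, then K rep KO, and bare runs of 5 values below keep this order. The series names the knockdown as one of KCNQ1OT1_K, and KCNQ1OT1 is a long RNA without a protein product that is read from the opposite strand of KCNQ1. All 5 conditions share the HEK293T background, and the labels name no drug, time point or donor. The meaning of EV, K, rep and non-rep is not written out in the labels, which also do not say which control belongs to the knockouts or whether a knockout was 1 clone or a pool. Each condition had 1 immunoprecipitated library and 1 input library, so there was 1 peak list per condition. No difference below has a replicate check and no test was made, and each interval covers counting error alone. Where nearby peaks arise together the intervals are too narrow. RNA was not measured, so neither the identity of the cells nor the knockdown could be checked here.

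Collagens are extracellular matrix proteins whose chains wind around each other into a rope-like helix. Fibrillar collagens build the ropes of skin, bone and cartilage, network collagens build basement membranes, beaded-filament collagens link cells to the matrix, and fibril-associated collagens coat the fibrils. Others span the cell membrane or carry fragments such as endostatin. MeDIP pulls down DNA fragments with an antibody against 5-methylcytosine, so a peak marks a stretch where methylated CpG sites are dense, and a stretch with few CpG sites gives little signal however methylated it is. Gene bodies are commonly methylated, while CpG-rich gene starts are commonly not.

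The peak lists held 91376 peaks in EV, 55911 in KD and 32634 in WT, with 55697 for K non-rep KO and 61623 for K rep KO. Between 6.35% and 9.15% of each list lay outside chromosomes 1 to 22 and were left out. The median width was 749 bp in WT and 505 to 522 bp in the other 4 lists. WT therefore stood apart in length and width, and sequencing depth is unknown from peak lists. Every comparison was made relative to all protein-coding genes of the same lists, and the part of list length and depth in the results was not tested beyond the alternatives given at the end.

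The starts of 5 collagen genes are shown first, because they contrast the few starts that carried a peak with starts that did not. Each is the 250 bases before the annotated start in GRCh38.p14 (RefSeq), written 5′ to 3′ on the gene's own strand, with every CG in capitals. CG reads the same on both strands. COL11A1, whose chain nucleates cartilage fibrils, had a peak over its start in 4 lists (chr1:103108523-103108772, minus strand, 11 CpG sites). COL16A1, a fibril-associated collagen, also had one in 4 lists (chr1:31704018-31704267, minus strand, 16 CpG sites). COL12A1, a fibril-associated collagen of tendon and ligament, had none over the start but a region of 4 lists just upstream (chr6:75206054-75206303, minus strand, 21 CpG sites). COL5A1, which sets the diameter of type I collagen fibrils, had many peaks in its body and none here (chr9:134641553-134641802, plus strand, 29 CpG sites). COL18A1, the source of endostatin, likewise had none at this start (chr21:45404915-45405164, plus strand, 37 CpG sites).
COL11A1: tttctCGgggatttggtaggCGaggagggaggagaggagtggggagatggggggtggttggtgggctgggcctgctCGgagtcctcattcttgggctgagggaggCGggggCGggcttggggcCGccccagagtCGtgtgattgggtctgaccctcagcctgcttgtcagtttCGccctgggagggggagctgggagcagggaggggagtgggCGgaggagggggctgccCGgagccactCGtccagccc
COL16A1: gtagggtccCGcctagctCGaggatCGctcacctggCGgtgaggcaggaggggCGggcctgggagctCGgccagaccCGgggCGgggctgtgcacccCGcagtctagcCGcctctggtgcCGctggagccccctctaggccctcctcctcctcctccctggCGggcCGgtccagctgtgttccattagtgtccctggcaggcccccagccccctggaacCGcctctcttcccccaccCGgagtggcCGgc
COL12A1: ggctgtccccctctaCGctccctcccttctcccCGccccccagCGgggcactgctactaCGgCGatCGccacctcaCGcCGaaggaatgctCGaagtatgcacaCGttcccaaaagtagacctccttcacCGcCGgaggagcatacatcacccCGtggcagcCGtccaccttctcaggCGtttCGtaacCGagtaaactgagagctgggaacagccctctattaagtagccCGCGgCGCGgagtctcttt
COL5A1: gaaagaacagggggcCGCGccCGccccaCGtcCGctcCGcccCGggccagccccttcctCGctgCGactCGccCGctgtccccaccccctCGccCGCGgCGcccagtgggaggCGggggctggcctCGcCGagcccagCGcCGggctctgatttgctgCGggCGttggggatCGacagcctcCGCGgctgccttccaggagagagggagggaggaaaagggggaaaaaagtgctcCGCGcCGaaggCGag
COL18A1: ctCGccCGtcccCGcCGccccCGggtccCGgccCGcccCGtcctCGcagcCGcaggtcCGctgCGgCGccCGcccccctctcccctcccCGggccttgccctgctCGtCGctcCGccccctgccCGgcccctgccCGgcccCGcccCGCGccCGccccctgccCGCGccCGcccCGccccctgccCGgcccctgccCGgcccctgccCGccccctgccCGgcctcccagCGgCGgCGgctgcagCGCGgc

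Start windows reach from 250 bases before to 50 bases after an annotated start. The table held 41 such windows for 30 of the 42 collagen genes. All 41 held a CG, against 98.0% of the 21156 windows of all protein-coding genes. They held a median of 18 CG (range 1 to 46), against 21 over all windows. The 4 collagen windows with a peak in some list held a median of 17 (range 10 to 29). The 5 starts printed above should therefore not be read as a trend in CpG number. A peak lay over a start window of 2 of the 30 genes in EV, 4 in KD and 1 in WT, with 1 for K non-rep KO and 2 for K rep KO. Over the 15101 protein-coding genes with a window the shares were 5.20% in EV, 3.28% in KD and 0.828% in WT, with 2.57% for K non-rep KO and 3.07% for K rep KO. Counts of 1 or 2 genes say little against these shares, and the 4 genes in KD, which lay above its 3.28%, included 2 with a peak in KD alone.

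At the COL11A1 start printed above, the EV peak covered 30% of the window, the KD peak 37%, the WT peak 33% and the K rep KO peak 100%. The authors' fold enrichment was 3.70 in EV, 4.71 in KD, 3.24 in WT and 4.96 in K rep KO. K non-rep KO had a peak within 648 bp of the start but not over the window itself. The merged region at this start (chr1:103107874-103109170) thus held a peak of every list.

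At the COL16A1 start, the KD peak covered 100% of the window with a fold enrichment of 5.59. The EV peak covered 45%, that of K non-rep KO 52% and that of K rep KO 38.7%. WT had no peak there. The merged region ran from 304 bp upstream to 400 bp inside the gene (chr1:31703617-31704321). A second start window of COL18A1, inside the gene, and the start window of COL26A1 carried a peak in KD alone. The KD peak at COL18A1 covered 12.3% of that window and the KD peak at COL26A1 53%, with fold enrichments of 3.42 and 3.53.

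Only the 30 collagen genes with a known strand could be searched within 2 kb of a start, which leaves out COL1A1 and COL1A2 among others. The share over all protein-coding genes is not given, so the count is a description only. There, 16 merged regions lay at 15 collagen genes, 1 of them shared by COL4A1 and COL4A2, and 4 were in 4 or 5 lists. Beside COL11A1 and COL16A1 these were COL9A2, a chain of the cartilage collagen IX, and COL12A1. The COL9A2 region lay 971 to 1625 bp inside the gene (chr1:40315661-40316315), and the COL12A1 region lay 316 to 2180 bp upstream of the start (chr6:75206369-75208233). Both were marked in every list but WT.

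Counted once each, the peaks in collagen genes numbered 273 in EV, 147 in KD and 36 in WT, with 128 for K non-rep KO and 159 for K rep KO. EV was highest and WT lowest. Per 100 kb this was 4.15 in EV, 2.24 in KD and 0.548 in WT, with 1.95 for K non-rep KO and 2.42 for K rep KO. All protein-coding genes had 4.14, 2.41, 1.09, 2.34 and 2.58 in the same order. The collagen density relative to all genes was 1.00 in EV (95% exact Poisson interval 0.888 to 1.13), 0.927 in KD (0.783 to 1.09) and 0.937 in K rep KO (0.797 to 1.09). It was 0.831 in K non-rep KO (0.693 to 0.988) and 0.504 in WT (0.353 to 0.697). The intervals of K non-rep KO and WT lay below 1, and those of the other 3 lists included it. The WT interval lay wholly below those of EV, KD and K rep KO.

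**Figure D1:**
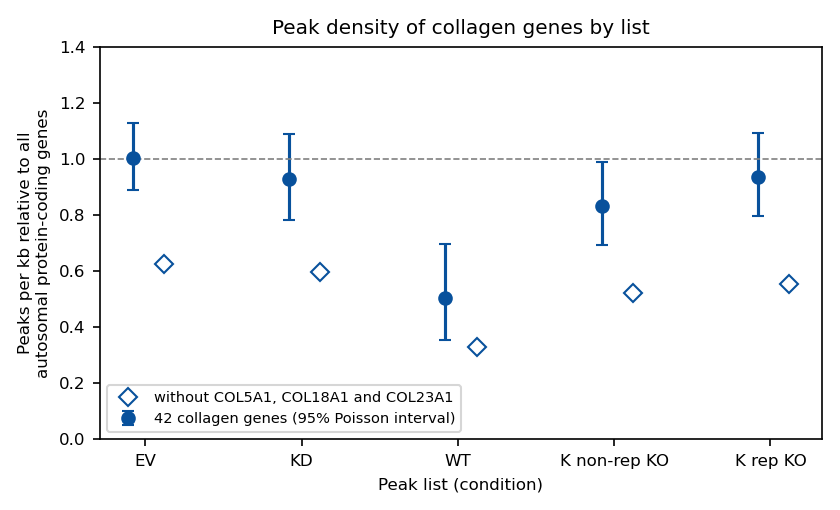
Peak density of the 42 collagen genes divided by that of all protein-coding genes, for each peak list. Filled points carry 95% exact Poisson intervals for counting error, open diamonds leave out COL5A1, COL18A1 and COL23A1, and the dashed line marks equal density. WT lies lowest at 0.504, and without the 3 genes every list lies between 0.328 and 0.624. Leaving out the genes with the most peaks lowers the value by construction.

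These densities rested on few genes. COL23A1, COL18A1 and COL5A1 together held 121 of the 273 collagen peaks in EV, 62 in KD and 15 in WT, with 56 for K non-rep KO and 75 for K rep KO, which is 41.7% to 47.2% of each list. Without them the relative density was 0.624 in EV, 0.598 in KD and 0.328 in WT, with 0.522 for K non-rep KO and 0.552 for K rep KO. This is a description made after the 3 genes were seen to lead. They were left out because they held the most peaks, so a fall in density was fixed in advance. The all-gene reference kept its other leading genes, so these values do not show that the other collagen genes are sparser than comparable genes.

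Collagen genes are long, with a median of 133 kb against 24.5 kb over all protein-coding genes. A peak occurred in 36 of the 42 in EV, 32 in KD and 17 in WT, with 31 for K non-rep KO and 33 for K rep KO. As shares these were 85.7%, 76.2%, 40.5%, 73.8% and 78.6%, against 68.8%, 56.0%, 37.0%, 55.8% and 57.1% of all protein-coding genes. Per kb the order was the other way. The median collagen gene had 7.13 peaks per 100 kb over the 5 lists together, against 11.6 for the median protein-coding gene, and 16 of 42 lay above that median. Across the 42 genes, length and density went in opposite directions (Spearman's rho -0.49), more than across all 19126 genes (rho -0.10). Length is itself the divisor of the density, so this is given as a description.

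Shares of genes with a peak are not matched for gene length here, and a longer gene has more room for a peak. A peak in every list occurred in 12 of the 42 collagen genes, and a peak in every list but WT in 11 of the 42, against 28.7% and 10.6% of all genes. No list had a peak in 4 genes, against 21.5% of all protein-coding genes. These were COL3A1, the fibrillar collagen of vessels and skin (chr2:188974373-189012746), COL10A1 of hypertrophic cartilage (chr6:116118909-116217144), COL11A2 of cartilage (chr6:33162694-33193519) and COL28A1 (chr7:7338194-7543870). The surroundings, 500 kb on both sides, held 3.9 peaks per 100 kb in EV for COL11A2 and 2.3 for COL10A1. They held 1.4 for COL28A1 and 0.4 for COL3A1, against 6.17 summed over the surroundings of all genes.

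**Figure D2:**
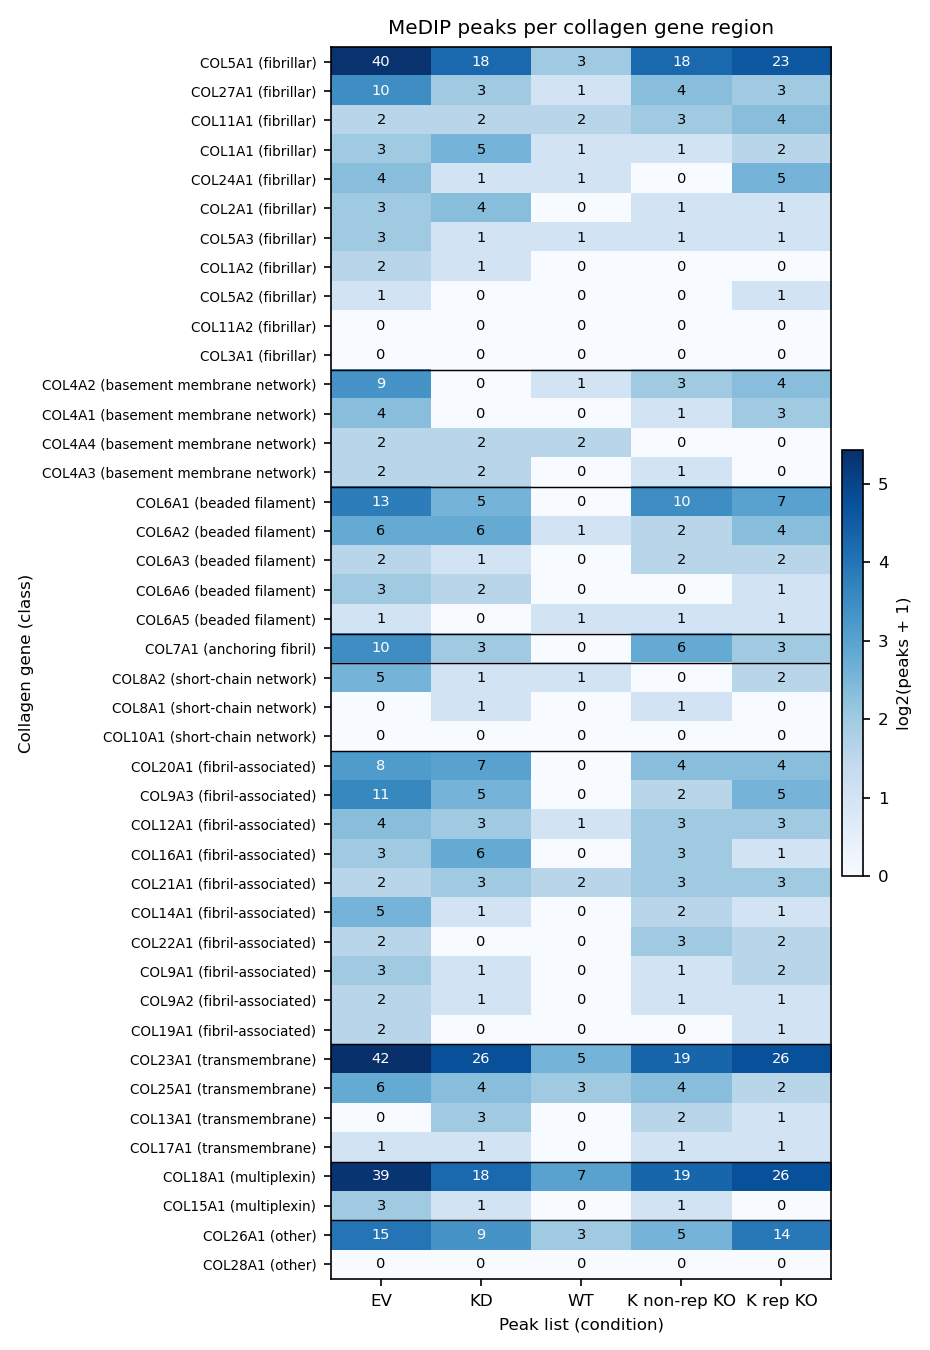
Number of MeDIP peaks in each of the 42 collagen genes (body plus 2 kb on both sides), with 1 column per peak list and genes grouped by collagen class. Shading follows log2(peaks + 1). COL23A1, COL18A1 and COL5A1 hold the most peaks in EV, KD and both knockouts, in WT COL5A1 has 3 as do COL25A1 and COL26A1, and 4 genes are at 0 throughout.

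Among the fibrillar collagens, COL5A1 (chr9:134641803-134844843) held 40 peaks in EV, 18 in KD and 3 in WT, with 18 for K non-rep KO and 23 for K rep KO. That is 19.3 per 100 kb in EV and 1.45 in WT. EV was highest and WT lowest by far, while KD and K non-rep KO had the same number. COL27A1, a fibrillar collagen of cartilage, held 10, 3, 1, 4 and 3 peaks over the lists in the order given. COL1A1, a chain of type I collagen, the main collagen of bone and skin, held 3, 5, 1, 1 and 2, with KD highest. Its partner chain COL1A2 held 2, 1, 0, 0 and 0, so peaks were listed in EV and KD alone. COL2A1, the main collagen of cartilage, held 3, 4, 0, 1 and 1. COL11A1 held 2, 2, 2, 3 and 4, and was among the few genes in which EV was not higher than the knockouts. COL24A1 held 4, 1, 1, 0 and 5, and the minor fibrillar chains COL5A2 and COL5A3 held 1, 0, 0, 0, 1 and 3, 1, 1, 1, 1. Over the class of 11 genes there were 68, 35, 9, 28 and 40 peaks.

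The basement membrane network genes of collagen IV sit in head-to-head pairs that share a promoter region. COL4A1 and COL4A2 lie 126 bp apart on chromosome 13, and COL4A4 and COL4A3, which serve the kidney glomerulus, 135 bp apart on chromosome 2. COL4A2 (chr13:110307284-110513209) held 9 peaks in EV, 0 in KD and 1 in WT, with 3 for K non-rep KO and 4 for K rep KO. COL4A1 held 4, 0, 0, 1 and 3. KD thus had no peak across either gene of the pair. The 4 genes together held 17, 4, 3, 5 and 6 peaks, and all 4 in KD came from the pair on chromosome 2, where COL4A4 held 2, 2, 2, 0 and 0 and COL4A3 held 2, 2, 0, 1 and 0.

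The beaded-filament genes of collagen VI held 25, 14, 2, 15 and 15 peaks. COL6A1 (chr21:45981770-46005048) was the densest collagen gene, with 128.3 peaks per 100 kb over the 5 lists together, at the percentile 98.75 of all protein-coding genes. It held 13 peaks in EV, 5 in KD and 0 in WT, with 10 for K non-rep KO and 7 for K rep KO. Peaks covered 48.6% of its region in EV, 16.9% in KD, 22.9% in K non-rep KO, then 21.1% in K rep KO. WT alone was bare. COL6A2, 93.1 kb away, held 6, 6, 1, 2 and 4. Both genes lie near the end of the long arm of chromosome 21. COL6A3, the longest of the classical collagen VI chains, held 2, 1, 0, 2 and 2, and COL6A5 and COL6A6 held 1, 0, 1, 1, 1 and 3, 2, 0, 0, 1.

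COL7A1, which forms the anchoring fibrils under the epidermis (chr3:48564073-48595329), held 10 peaks in EV, 3 in KD and 0 in WT, with 6 for K non-rep KO and 3 for K rep KO. The short-chain genes were poor in peaks, with 5, 2, 1, 1 and 2 over 3 genes. All but 2 of those were in COL8A2, a collagen of the corneal endothelium, and COL8A1 held 1 each in KD and K non-rep KO.

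The 10 fibril-associated genes held 42, 27, 3, 22 and 23 peaks. COL9A3, a chain of cartilage collagen IX (chr20:62816213-62841159), held 11, 5, 0, 2 and 5. COL20A1, near it on chromosome 20, held 8, 7, 0, 4 and 4. COL16A1 held 3, 6, 0, 3 and 1, and here KD was highest. COL12A1 held 4, 3, 1, 3 and 3. COL21A1 held 2, 3, 2, 3 and 3, so it was nearly level across lists that differed in length. COL14A1 held 5, 1, 0, 2 and 1, and COL22A1, of tissue junctions, held 2, 0, 0, 3 and 2. The others were COL9A1 (3, 1, 0, 1, 2), COL9A2 (2, 1, 0, 1, 1) and COL19A1 (2, 0, 0, 0, 1).

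Among the transmembrane collagens, COL23A1 (chr5:178237618-178590393) held the most peaks of any collagen gene, 42 in EV, 26 in KD and 5 in WT, with 19 for K non-rep KO and 26 for K rep KO. COL25A1, found in neurons and amyloid plaques, held 6, 4, 3, 4 and 2. COL13A1, of the neuromuscular junction, held 0, 3, 0, 2 and 1, so neither EV nor WT had a peak there. COL17A1, of the hemidesmosome, held 1, 1, 0, 1 and 1.

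The multiplexin COL18A1 (chr21:45405165-45513720) held 39 peaks in EV, 18 in KD and 7 in WT, with 19 for K non-rep KO and 26 for K rep KO. Peaks covered 22.5%, 12.0%, 3.89%, 9.79% and 14.2% of its region. Its 7 peaks were the most of any collagen gene in WT. With 96.8 peaks per 100 kb it was second to COL6A1 in density, and COL9A3 followed with 79.5. The other multiplexin, COL15A1, held 3, 1, 0, 1 and 0. COL26A1 (chr7:101362388-101559024), which belongs to none of these classes, held 15, 9, 3, 5 and 14.

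In the sequence 500 kb on both sides of each collagen gene, a peak was counted when its midpoint lay there. In the gene region an overlap of 1 bp was enough, so peaks at the edge add to the gene count, most of all in short genes. For neighbouring collagen genes such as COL4A1 and COL4A2 the sides include the other one. Across the 42 genes the EV density of the gene and of these sides were correlated (Spearman's rho 0.72, across genes that share 1 library; 0.59 across all 19126). The collagen gene was denser than its surroundings in 20 of 42 genes in EV, 21 in KD and 9 in WT, with 19 for K non-rep KO and 20 for K rep KO. Over all protein-coding genes this held for 45.9%, 40.1%, 27.9%, 39.5% and 39.5%. Summed over the genes, density in collagen genes was 0.753 of that of the surroundings in EV, 0.729 in KD and 0.418 in WT, with 0.657 for K non-rep KO and 0.750 for K rep KO. For all genes these ratios were 0.690, 0.673, 0.607, 0.673 and 0.676. In WT the collagen genes thus lay further below their surroundings than protein-coding genes did, and in EV, KD and K rep KO they lay slightly less far below.

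**Figure D3:**
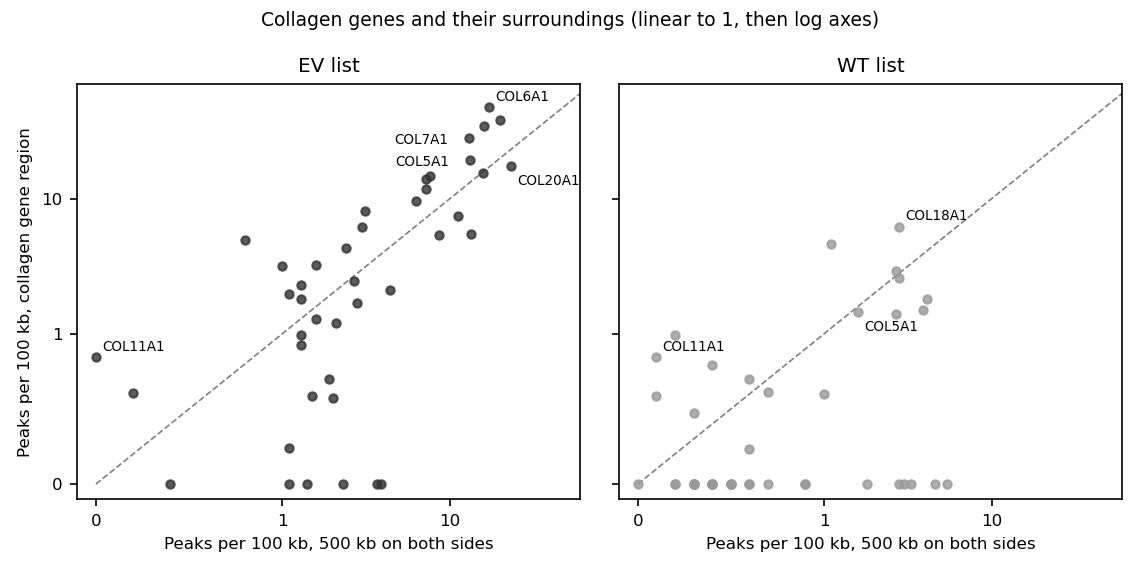
Peaks per 100 kb in each collagen gene against peaks per 100 kb in the 500 kb on both sides of it, for EV (left) and WT (right), 42 genes each. Peaks count in the gene by any overlap and in the sides by their midpoint. Axes are linear up to 1 and log beyond, and the dashed line marks equal density. In EV 20 genes lie above the line and in WT 9.

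The knockdown was set against EV, to ask where methylated peaks differed when KCNQ1OT1_K was knocked down. Over collagen genes KD had 147 peaks and EV 273, and over all protein-coding genes KD had 0.583 of the number in EV. The collagen ratio was 0.925 of the all-gene ratio (interval 0.751 to 1.13), an interval that includes 1. Of the 38 collagen genes with a peak in either list, 27 had fewer in KD, 6 more and 5 the same. Over all genes 67.2% had fewer and 14.4% more, so the collagen shares of 71.1% and 15.8% lay near the background.

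A gene was counted past 2-fold when its ratio, with 0.5 added to both numbers, lay at least 2-fold from the all-gene ratio and both lists together held 5 or more peaks. Here and below, a gene that met this minimum with all its peaks in the same list was past 2-fold by construction. For KD against EV 21 collagen genes met the minimum. Of these, 3 lay 2-fold or more below (COL4A2, COL8A2 and COL14A1) and 4 above (COL16A1, COL21A1, COL2A1 and COL1A1), where all genes gave 8.96% and 10.3%. The interval of COL4A2, with 0 peaks in KD and 9 in EV, reached from 0 to 0.507 and was the only one of the 21 to leave out the all-gene ratio of 0.583. How often the intervals of all protein-coding genes do so was not counted. Genes named by their interval, here and below, are thus a description only. In COL16A1, KD had 6 peaks and EV 3, with an interval of 0.427 to 12.4.

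The low number at COL4A1 and COL4A2 was shared by the surroundings. The pair held 13 peaks in EV, 0 in KD and 1 in WT, with 4 for K non-rep KO and 6 for K rep KO. The 500 kb on both sides held 20, 5, 3, 9 and 3, so KD had 0.25 of the EV number there, also below 0.583. At COL5A1 the sides held 132 in EV and 64 in KD, close to the ratio within the gene.

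Each knockout was set against WT, the control named before them in the series. These comparisons and EV against WT share the WT list. K rep KO had 159 collagen peaks and WT 36, and over all genes K rep KO had 2.38 times the number in WT. The collagen ratio was 1.84 times the all-gene ratio (interval 1.29 to 2.75). Of 34 collagen genes with a peak in either list, 30 had more in K rep KO and 2 fewer, where all genes gave 73.6% and 10.8%. Such shares, here and in the other comparisons, are not matched for gene length or for peaks per gene. Past 2-fold, among 12 genes, lay COL23A1, COL5A1, COL9A3 and COL6A1 above and COL25A1 below, against backgrounds of 12.0% and 15.6%. COL9A3 and COL6A1 had no peak in WT, so they were above by construction. None of the 12 intervals left out the all-gene ratio.

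K non-rep KO had 128 collagen peaks, and over all genes 2.16 times the number in WT. The collagen ratio was 1.63 times the all-gene ratio (interval 1.13 to 2.46). More peaks were found in 28 of 34 genes and fewer in 3, against 70.7% and 12.3% of all genes. Of 10 genes with enough peaks, COL7A1, COL5A1 and COL6A1 lay 2-fold or more above and 0 below, against 11.6% and 18.3%. COL7A1 and COL6A1 had no peak in WT, so they were above by construction. COL6A1, with 10 peaks against 0, was the gene whose interval, from 2.24 upward, left out the all-gene ratio.

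EV against WT, the comparison of both controls, pointed the same way. EV had 3.81 times as many peaks as WT over all genes, and the collagen ratio was 1.97 times that (interval 1.40 to 2.90). EV had more in 32 of 36 genes and fewer in 0, against 86.6% and 4.11% of all genes. Among 16 genes with enough peaks, 7 lay 2-fold or more above (COL7A1, COL23A1, COL14A1, COL5A1, COL9A3, COL20A1 and COL6A1) and COL25A1 below, against 17.5% and 25.4%. COL7A1, COL14A1, COL9A3, COL20A1 and COL6A1 had no peak in WT, so they were above by construction. COL5A1, with 40 peaks in EV and 3 in WT, had an interval of 4.25 to 67.4, which left out 3.81. COL6A1, with 13 against 0, had a lower bound of 3.05, which did not. The 500 kb on both sides of COL6A1 held 17.1 peaks per 100 kb in EV and 3.3 in WT. Those of COL5A1 held 13.2 in EV and 1.6 in WT, so the surroundings of COL5A1 also had far fewer peaks in WT. In all 3 of these comparisons WT was the list low in collagen peaks, at 0.504 of the all-gene density. K rep KO (0.937), EV (1.00) and K non-rep KO (0.831) were near or below the all-gene density, not above it.

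Set against EV in place of WT, the collagen ratio was 0.935 of the all-gene ratio for K rep KO (interval 0.763 to 1.14) and 0.830 for K non-rep KO (0.666 to 1.03). The direction was thus the opposite of that against WT, and both intervals include 1. K rep KO had fewer peaks than EV in 28 collagen genes and more in 4, against 64.7% and 16.3% of all genes, and K non-rep KO fewer in 29 and more in 5, against 67.9% and 13.9%. COL11A1 and COL21A1 lay 2-fold or more above in both knockouts and COL22A1 in K non-rep KO. COL14A1 lay below in K rep KO, and COL8A2 and COL9A3 in K non-rep KO. The background was 10.8% above and 8.01% below for K rep KO, and 9.82% and 9.11% for K non-rep KO.

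The knockouts were also set against each other. K rep KO had 1.10 times as many peaks as K non-rep KO over all genes, and the collagen ratio was 1.13 times that (interval 0.888 to 1.43), an interval that includes 1. K rep KO had more in 16 of 36 genes, fewer in 11 and the same number in 9, where all genes gave 42.8% more and 33.6% fewer. Of 17 genes with enough peaks, COL24A1 (5 against 0) and COL26A1 (14 against 5) lay 2-fold or more above and COL7A1 (3 against 6) below, against 7.30% and 6.81%. None of their intervals left out the all-gene ratio, and that of COL26A1 was 0.953 to 9.93.

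Other genes of the collagen pathway came from fixed lists. The 29 genes of collagen synthesis and processing held 85 peaks in EV, 47 in KD and 16 in WT, with 40 for K non-rep KO and 53 for K rep KO, and 3 of them had no peak. ADAMTS2, which cuts the N-terminal end from procollagen, held 22, 12, 3, 11 and 8, and P4HB, a subunit of prolyl 4-hydroxylase, held 9, 7, 1, 4 and 6. TLL2, a protease related to the one that trims the C-terminal end of procollagen, held 6, 4, 4, 1 and 2. The 10 receptor genes held 23, 15, 7, 14 and 15, led by MRC2, which takes up collagen fragments (11, 10, 3, 7 and 8). The 8 genes of breakdown held 8, 5, 0, 5 and 4, led by MMP14, a membrane-bound collagenase (5, 1, 0, 3 and 2). The 15 laminin, nidogen and proteoglycan genes that accompany collagen IV held 110, 75, 30, 61 and 70, led by LAMA5 (21, 16, 8, 14 and 20), LAMC3 (15, 9, 4, 6 and 9) and LAMA2 (8, 10, 4, 6 and 9).

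For EV against WT the ratio relative to all genes was 1.36 for synthesis and processing (interval 0.812 to 2.55), 0.823 for receptors (0.359 to 2.38) and 0.952 for the basement membrane partners (0.638 to 1.49). All 3 intervals include 1, and they overlap that of the collagen genes (1.40 to 2.90). Whether the collagen genes differ from these lists was not tested.

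**Figure D4:**
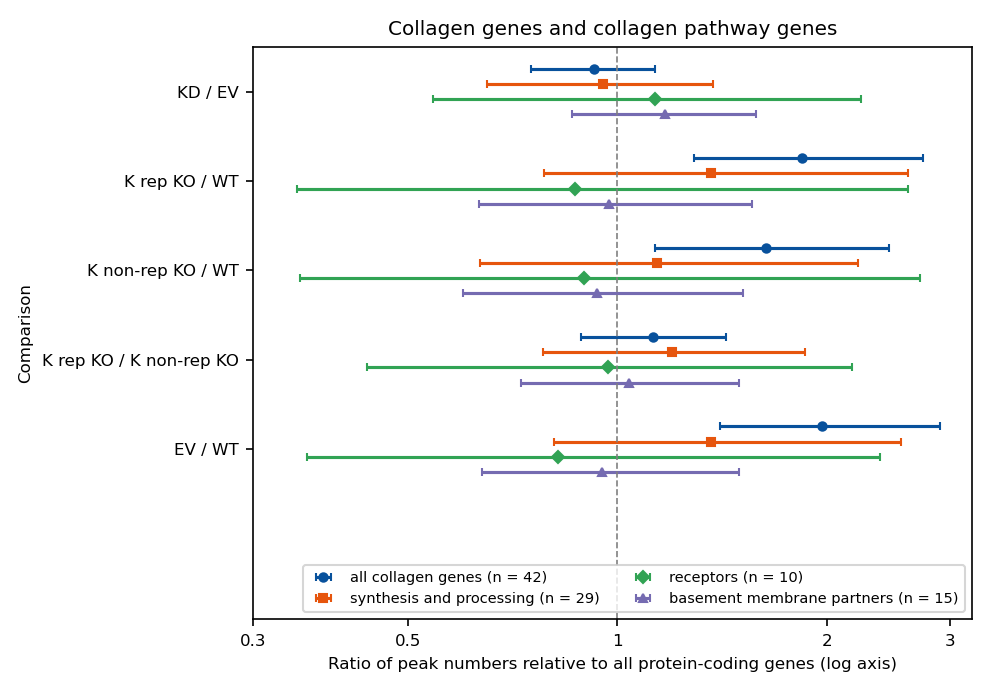
Ratio of peak numbers in each comparison relative to that of all protein-coding genes, on a log axis, for the collagen genes and 3 lists of pathway genes. Bars are 95% exact conditional intervals for counting error. The collagen genes lie above 1 in the comparisons that use WT (1.84, 1.63 and 1.97), and the intervals of the pathway lists include 1 throughout.

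Peaks of the 5 lists merged into 443 collagen regions. Of these, 278 (62.8%) were in 1 list, 94 in 2, 45 in 3, 15 in 4 and 11 (2.48%) in all 5. Over all protein-coding genes 58.0% were in 1 list and 5.94% in all 5. EV alone held 124 (28.0%, against 25.4% over all genes), and 169 (38.1%, against 35.4%) were in KD or a knockout but in neither control. Every list but WT held 11 (2.48%, against 2.92%).

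Of the 273 EV peaks, 27.8% overlapped a KD peak (Wilson interval 22.9 to 33.4), where all EV gene peaks gave 32.5%. With WT the share was 8.42% (5.68 to 12.3), against 18.5%. With K non-rep KO it was 24.9% (20.2 to 30.4), against 32.3%, and with K rep KO 31.5% (26.3 to 37.2), against 35.6%. Of the 36 WT peaks, 61.1% overlapped an EV peak (44.9 to 75.2), against 69.1% over all genes. With KD the share was 38.9% (24.8 to 55.1), against 51.1%, with K non-rep KO 33.3% (20.2 to 49.7), against 58.4%, and with K rep KO 52.8% (37.0 to 68.0), against 59.7%. All of these shares were below those of all genes. The all-gene value lay outside the interval for WT peaks with K non-rep KO and for EV peaks with WT and with K non-rep KO. A share with a longer list is raised by the length of that list. It is lowered where that list is sparse in collagen genes, as WT was (0.504 of the all-gene density) and K non-rep KO (0.831). These shares are therefore not separate from the densities, and how far they go beyond them was not tested.

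The 11 regions present in every list lay in 6 genes, 3 in COL18A1, 2 each in COL11A1, COL21A1 and COL23A1, and 1 each in COL12A1 and COL5A1. Fold enrichment is the authors' own value for each peak and was ranked only within its own list. The COL12A1 region (chr6:75095331-75096890) had fold enrichments of 16.4 in EV, 14.1 in KD and 8.67 in WT, with 17.6 for K non-rep KO and 22.5 for K rep KO, at percentiles of 94.3 to 99.8 among the peaks of each list. A COL23A1 region (chr5:178394761-178396892) ranked at percentiles of 97.0 to 99.4. These 2 regions and 1 of COL21A1 (chr6:56098790-56099714, percentiles 84.5 to 97.8) were high in every list. The COL5A1 region (chr9:134653724-134655170) ranked at percentile 89.9999 in EV, 67.2 in KD and 21.9 in WT, with 92.8 for K non-rep KO and 91.1 for K rep KO. The second COL23A1 region (chr5:178524895-178525773) reached percentile 98.2 in K rep KO but only 2.9 in KD.

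**Figure D5:**
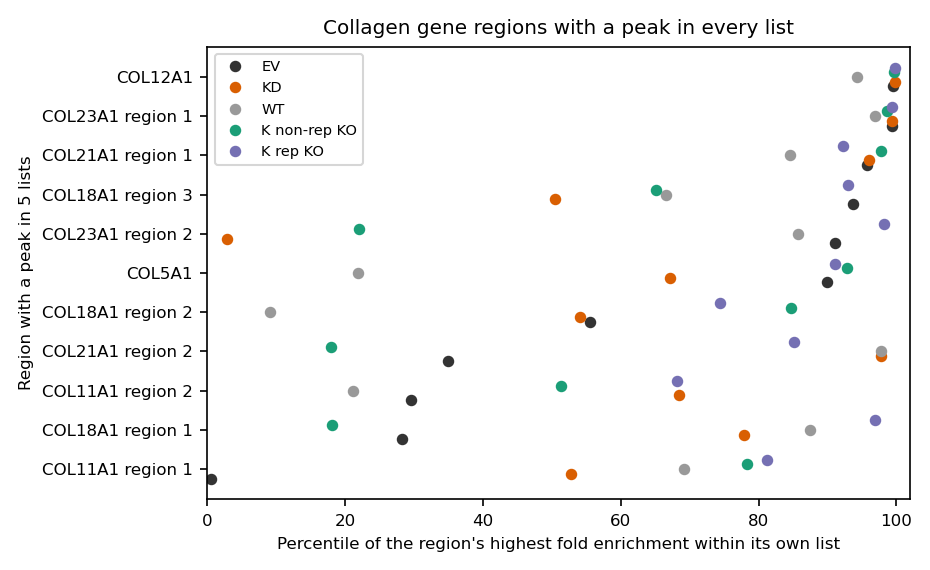
Percentile of the highest fold enrichment of each of the 11 regions present in every list, ranked among the autosomal peaks of its own list, with 1 colour per list. The COL12A1 region and the first COL23A1 region lie at 94.3 or above in every list, while others range widely.

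Taken over all collagen peaks, enrichment was near that of other genes. The median fold enrichment was 4.29 in EV, 4.21 in KD and 4.37 in WT, with 4.22 for K non-rep KO and 4.35 for K rep KO, against 4.32, 4.23, 4.34, 4.45 and 4.41 for peaks in all protein-coding genes of the same list. Collagen regions were covered to 2.59%, 1.31%, 0.431%, 1.07% and 1.39%, against 2.72%, 1.48%, 0.917%, 1.497% and 1.64%. Along the 30 genes with a known strand, peaks were spread over the body, with 23.5%, 21.7%, 14.9%, 19.0% and 20.8% of EV peaks in 5 successive equal parts from start to end. Over all protein-coding genes with a known strand these EV shares were 19.7%, 19.1%, 19.1%, 20.0% and 22.2%. The peak-rich genes COL6A1, COL9A3 and COL20A1 have no known strand and are left out of these parts. At most 2.72% of the collagen peaks of a list also lay in the body of another protein-coding gene.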

How the data were processed

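MeDIP-seq peak lists of 5 conditions of HEK293T cells were used, 1 per condition, each from 1 immunoprecipitated and 1 input library (10 libraries). Bowtie2, MACS2, deepTools and the build GRCh38 are named in the submitters' processing notes, and their versions and settings, with the use of the input, are absent from the sources used here. In the deposited narrowPeak lists the authors give each peak a score, a fold enrichment, −log10 p and −log10 q. Scores equal 10 times −log10 q cut to whole numbers, and the lowest −log10 q was 1.30 to 1.31. The peak names inside both knockout lists carry other prefixes than the lists, so their condition rests on the list's own label. 1 further list matched no sample's label and was not used.

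Peaks on chromosomes 1 to 22 were assigned to genes of the RefSeq table (GRCh38.p14) when they overlapped the body plus 2 kb on both sides by 1 bp or more, each peak counted once per list of genes. Ratios of peak numbers were divided by the ratio over all 19126 genes, with 95% exact Clopper-Pearson conditional intervals. Densities have exact Poisson intervals and shares Wilson intervals. All cover counting error only. With 1 list per condition no test was made. Peaks were merged where they overlapped. Genes described in full were the 10 with the most peaks, the 5 densest with 5 or more peaks, all genes without a peak, and those past 2-fold. Other collagen genes are given by their counts, and of the pathway lists the 3 genes with the most peaks could be named. Members, lists and rules were chosen with earlier results of these data known. Stricter peak thresholds, equal list lengths, other gene regions and overlaps, covered bases and EV in place of WT were tried. Leaving out the 3 leading genes was added after seeing the data. Strand was missing for 12 genes, which have no start window and are left out of positions along the gene. Peak assignment and intervals were tested on simulated data. Python 3.11.15, NumPy 2.4.6, pandas 2.3.3, SciPy 1.17.1 and Matplotlib 3.10.9 were used.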

Additional observations from a re-analysis of the deposited data

How the results depend on the processing

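No paired analysis was possible because each condition had 1 peak list. Of the ratios of collagen peaks recomputed under an alternative, 35 kept their direction and moved by less than their counting interval. With EV in place of WT, K rep KO (0.935) as well as K non-rep KO (0.830) turned from above to below the all-gene ratio, and the cause was not tested. Relative density without COL5A1, COL18A1 and COL23A1 was 0.624 in EV, 0.598 in KD and 0.328 in WT, with 0.522 for K non-rep KO and 0.552 for K rep KO. At −log10 q of 5 or more the value was 0.709 in KD and 0.593 in K non-rep KO, and with equal list lengths 0.692 in K non-rep KO. The other 27 densities moved by less than their counting interval.

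Most counts past 2-fold that moved were lower. With −log10 q of 5 or more there were 0 above for KD against EV, 0 below and 2 above for K rep KO against WT, 1 above for K non-rep KO against WT, 0 below for EV against WT, and 0 below and 3 above between the knockouts, the last of these higher than the 2 reported. With fold enrichment of 4 or more there were 0 below and 1 above for KD against EV, and 0 below and 2 above for K rep KO against WT. With equal list lengths there were 1 below and 1 above for KD against EV, 0 below and 1 above for K rep KO against WT, 1 above for K non-rep KO against WT, 0 below and 1 above between the knockouts, and 0 below and 2 above for EV against WT. With EV in place of WT, 2 lay above for K rep KO and 2 below for K non-rep KO.

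Start windows with a peak numbered 1 in EV, 1 in KD, 0 in WT and 1 in K rep KO with −log10 q of 5 or more. They numbered 1, 2, 0 and 1 with fold enrichment of 4 or more, and 0 in EV, 2 in KD and 1 in K rep KO with equal list lengths. EV peaks shared with KD came to 12.3% with −log10 q of 5 or more and 22.5% with fold enrichment of 4 or more. EV peaks shared with K rep KO came to 18.9%, 23.8% and, with equal lengths, 23.3%, and those shared with K non-rep KO to 15.1% with −log10 q of 5 or more. With equal lengths 12.8% of EV peaks were shared with WT and 30.6% of WT peaks with EV. Read depth is unknown, so a gene without a peak is not shown to be unmethylated.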

Other observations

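Collagen genes outside the autosomal protein-coding set were counted in the same way. On the X chromosome, where COL4A5 and COL4A6 lie beside each other and encode further collagen IV chains, COL4A5 had 1 peak in EV and 0 in the other 4 lists, and COL4A6 had 0 in all 5. The pseudogenes COL6A4P1 and COL6A4P2 on chromosome 3 held 1, 1, 2, 0, 1 and 1, 0, 0, 1, 1 peaks in the order EV, KD, WT, K non-rep KO, then K rep KO. COL6A4P1 was thus a collagen sequence in which WT was highest, on very few peaks. Read mapping between near-identical copies was not checked here.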
